A study of Mus musculus with 18 samples.

Results

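The circadian clock genes of MEFs (mouse embryonic fibroblasts) were examined after exchange of the serum in their medium. The 10 genes were Per1, Per2, Per3, Cry1, Cry2, Nr1d1, Nr1d2, Arntl, Dbp and Tef, taken by gene name from the 55487 rows of the count table because they form the core and the output of the clock. Each name matched a single row, and all 10 were among the 15381 genes that passed the filter on low counts. The cells were wild-type MEFs, a line whose genotype is labelled WT, and all groups shared that line and genotype. One group of 3 libraries came from cells kept in Scm, complete medium with the fetal bovine serum that left MEFs sensitive to ferroptosis, and another from cells kept in Rcm, complete medium with the serum that made them resistant. R-Scm denotes cells moved from Rcm to Scm and S-Rcm denotes cells moved from Scm to Rcm, each harvested 12 h or 24 h after the exchange, with 3 libraries per time point. Cells kept in Scm or Rcm served as 0 h. No group received fresh medium with its own serum, so that the new serum and the renewal of medium as such cannot be told apart in a comparison with the serum the cells left. The clock time of harvest is not given in the sources used here. Nothing in the labels says that the 3 libraries of a group came from separate cultures, and the study's methods call its culture experiments independently replicated in general, without naming these libraries. The p-values measure the spread between these libraries, which may be technical.

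The clock of mammalian cells is a feedback loop of transcription. ARNTL, also called BMAL1, pairs with CLOCK, binds E-box motifs and activates the Per, Cry and Nr1d genes, and the PER and CRY proteins then repress ARNTL and CLOCK, while the REV-ERB proteins encoded by Nr1d1 and Nr1d2 repress Arntl through ROR response elements (ROREs). DBP and TEF are transcription factors of the PAR bZIP family that carry the rhythm to D-box motifs in output genes. Cultured fibroblasts each hold such a clock, and a rise in serum is a classic way to set their phases together.

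Promoter sequence from RefSeq (GRCm38.p6) places these elements in the members, and the stretches below are shown because they carry the motifs that link one member to another. An entry, spanning 250 bases before to 50 bases after a start site, was found for 9 of the 10 members, in 12 windows in all, and Per2 had none. Both strands were searched. The E-box CACGTG was found in windows of 3 of the 9 genes (Per1, Cry1 and Tef) and in 7.15% of 32851 windows of all genes. The weaker E-prime box CACGTT was found in 3 of the 9 (Cry1, Cry2 and Nr1d1) and in 4.68% of all windows. The D-box TTATGTAA was found in 1 of the 9, Per3, which held it at both -205 and -158 bases from its start, and in 0.938% of all windows. A match to the RORE was found in 1 of the 9, Arntl, and in 0.0609% of all windows, 20 in number. Positions take the start site as 0. The capitals mark the motif, each line is written 5′ to 3′ on the strand of the gene, and AACGTG in the line of Cry1 is the E-prime box read on the other strand.
Per1, chr11:69098763-69098808, plus strand: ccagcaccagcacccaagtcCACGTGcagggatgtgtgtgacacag
Cry1, chr10:85185089-85185144, minus strand: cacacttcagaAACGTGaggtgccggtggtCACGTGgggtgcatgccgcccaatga
Tef, first start, chr15:81802534-81802563, plus strand: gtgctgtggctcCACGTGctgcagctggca
Tef, second start, chr15:81811264-81811293, plus strand: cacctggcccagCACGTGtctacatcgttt
Per3, chr4:151044806-151044880, minus strand: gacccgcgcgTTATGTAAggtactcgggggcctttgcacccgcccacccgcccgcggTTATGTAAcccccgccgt
Arntl, first RORE, chr7:113207492-113207521, plus strand: attggtcggAAAGTAGGTTAgtggtgcgac
Arntl, second RORE, chr7:113207528-113207557, plus strand: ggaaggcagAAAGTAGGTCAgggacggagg
The stretches of Per1, Cry1 and Per3 and that of the second Tef start touch no exon base of their gene in GENCODE M21, whereas the stretch of the first Tef start and both stretches of Arntl lie wholly over exons. A match is a run of letters, and occupancy was not measured.

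**Figure D1:**
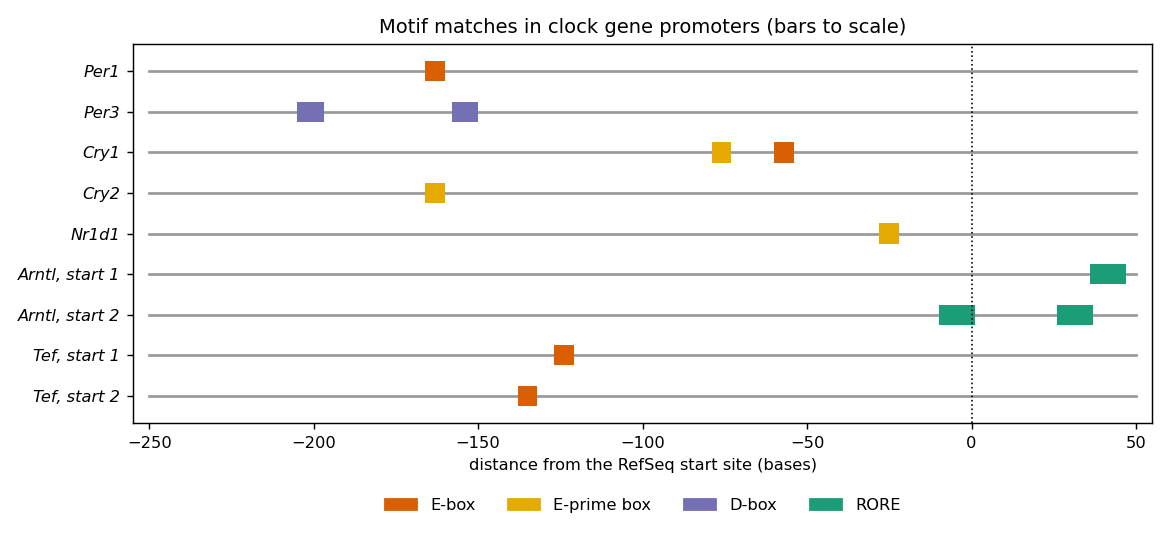
Positions of motif matches in the promoter windows of clock genes that held any. The horizontal axis is the distance in bases from the RefSeq start site (dotted line at 0), each grey line is a window, and each coloured bar is a match drawn to scale, with E-box matches upstream of the starts of Per1, Cry1 and Tef, D-box matches at -205 and -158 in Per3, and RORE matches around the second start of Arntl at -10 and 26.

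Counts per library totalled 14534906 to 20313715. Of 8 fibroblast markers all were abundant, with Col1a1 at 944 to 2363 and Vim at 2848 to 4526 CPM, the counts per 1000000 of the TMM-scaled library size. Their summed level was 8121 to 9341 CPM in R-Scm 12 h, below the 10570 to 11350 CPM of Rcm, and 8569 to 8927 CPM in Scm. The part of this shift in the results was not tested. Adgre1 (macrophages) and Myod1 and Myog (muscle) had 0 counts in all 18 libraries, and Epcam (epithelium), Pecam1 (endothelium) and Ptprc (leukocytes) reached at most 7, 4 and 3 counts. Other markers went higher: Kdr and Cdh5 (endothelium) reached 30 and 18 counts, Krt8 (epithelium) 15 and Cd68 (leukocytes) 86. The summed level of 4 leukocyte markers, nearly all of it Cd68, was 3.56 to 5.21 CPM in R-Scm 12 h and 2.05 to 3.41 CPM in the other groups, and that of 4 endothelial markers reached 3.25 CPM in R-Scm 12 h and 1.48 CPM elsewhere, and their part in the results was not tested. Libraries stood apart within groups: R-Scm 24 h library 1 was the highest of its 3 for 7 of the 10 members, S-Rcm 24 h library 1 for 9 of 10, and R-Scm 12 h library 3 was the lowest of its 3 for 9 of 10. The calls they bear on most are given with and without them. A gene was called when its absolute log2 fold change exceeded 0.58 and its adjusted p from edgeR's quasi-likelihood test, over all 15381 genes, was under 0.05. By this rule 1 of the 8 fibroblast markers was lower in R-Scm 12 h than in Rcm and 0 were higher (1.22% and 1.51% of all genes). Against Scm, 1 of the 8 fibroblast markers and 1 of the 2 endothelial markers tested were higher in R-Scm 12 h. None of either list was lower there (4.4% of all genes called in either direction).

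At 12 h after the move from Rcm to Scm, 4 of the 10 members had fallen (Per1, Per2, Cry2 and Tef) and 1 had risen (Arntl). Among all genes tested 1.22% were called lower, 1.51% higher and 2.74% in either direction. The largest fall was that of Tef (log2 fold change -1.52) and the next that of Per2 (-1.23). In the opposite move, from Scm to Rcm, Per1 and Cry1 had fallen at 12 h (2 of 10, against 0.26% of all genes lower and 0.858% in either direction). At 24 h no member was called against the cells it came from in either direction.

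**Figure D2:**
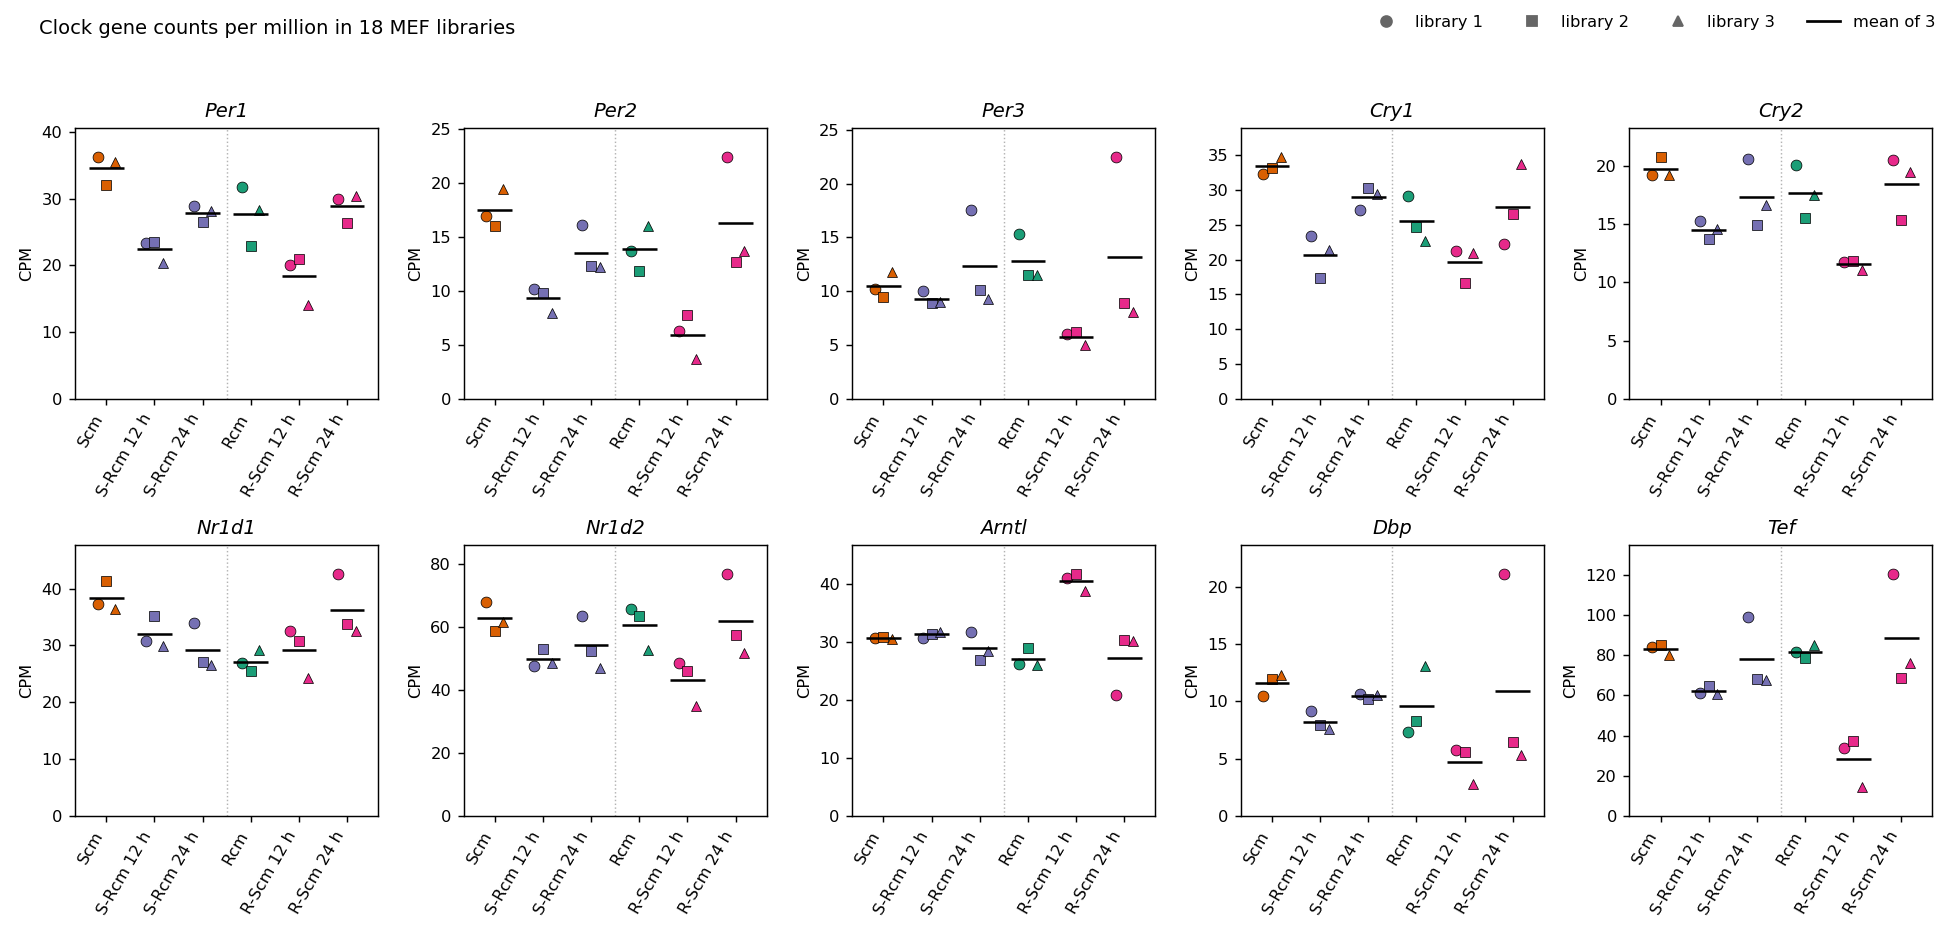
CPM of the 10 clock genes in every library. Each panel is a gene with CPM from 0 on the vertical axis, each symbol a library (shape gives its number), each black line the mean of 3, and the dotted line parts the cells that began in Scm from those that began in Rcm, with Tef at 14.2 to 37.4 CPM in R-Scm 12 h against 78.3 to 84.9 in Rcm.

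The levels of the members in Scm, per kilobase of exon, spanned an order of magnitude. Nr1d1 was highest at 12.5 ± 0.834 CPM per kb (SD, n = 3), followed by Nr1d2 at 11.6 ± 0.881, Tef at 10.6 ± 0.326 and Cry1 at 10.01 ± 0.373. Per1 stood at 6.15 ± 0.395, Arntl at 4.07 ± 0.0229 and Dbp at 3.87 ± 0.325. Cry2 (3.13 ± 0.144), Per2 (2.98 ± 0.298) and Per3 (1.09 ± 0.124) were lowest. In this order the libraries of Nr1d1 and Nr1d2, of Tef and Cry1, of Arntl and Dbp and of Cry2 and Per2 overlapped, while Nr1d2 and Tef were barely apart and Per1 and Per3 stood clear of their neighbours. Raw counts were 46 at the lowest, for Dbp, and 2041 at the highest, for Tef, so that counting error bears most on Dbp, Per2 and Per3.

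The Per genes encode the period repressors. Gene positions are those of GENCODE M21 on GRCm38. Per1, on chromosome 11 (69095217 to 69109960), was at 31.8, 23.0 and 28.2 CPM in the 3 Rcm libraries and at 20.03, 20.99 and 14.1 CPM in R-Scm 12 h. The Scm libraries held 36.3, 32.1 and 35.5 CPM of it, and those of S-Rcm 12 h held 23.3, 23.5 and 20.4 CPM. In both directions every library at 12 h was below every library of the cells it came from. The log2 fold change of Per1 was -0.59 (SE 0.14, adjusted p = 0.0261) in R-Scm 12 h and -0.63 (SE 0.14, adjusted p = 0.0376) in S-Rcm 12 h. The first value lies just past the fold threshold, and its call was lost in 8 of 16 alternatives, among them DESeq2 (-0.58) and the fits without Rcm library 1 (-0.48, adjusted p = 0.125), without Rcm library 3 (-0.57, adjusted p = 0.0760) and without R-Scm 12 h library 3 (-0.43, adjusted p = 0.116). The second was lost whichever library of Scm or S-Rcm 12 h was left out (adjusted p = 0.0804 to 0.166). At 24 h Per1 was at 29.9, 26.3 and 30.3 CPM in R-Scm, among the Rcm values, and at 29.0, 26.4 and 28.2 CPM in S-Rcm, still below all 3 Scm libraries (-0.31, adjusted p = 0.581).

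Per2, whose protein is the period repressor most often followed in clock reporters, lies on chromosome 1 (91415982 to 91459324). Its values were 13.7, 11.8 and 16.0 CPM in Rcm, 6.24, 7.72 and 3.68 CPM in R-Scm 12 h and 22.4, 12.7 and 13.7 CPM in R-Scm 24 h. The 12 h libraries were thus below all others of that direction, and library 1 at 24 h was above all 3 of Rcm. The fall of Per2 at 12 h was -1.23 (SE 0.25, adjusted p = 0.00804), and was lost in 1 of 16 alternatives, the fit to the compared groups alone (-1.22, adjusted p = 0.0641). Without R-Scm 12 h library 3 it was -0.99 (adjusted p = 0.0397). In the other direction Per2 was at 16.9, 16.0 and 19.4 CPM in Scm, at 10.2, 9.81 and 7.90 CPM after 12 h in S-Rcm and at 16.1, 12.3 and 12.1 CPM in S-Rcm 24 h. All 3 S-Rcm 12 h libraries were below Scm, with a log2 fold change of -0.91 (SE 0.24) that missed the threshold (adjusted p = 0.0825). It passed in 5 of 16 alternatives, among them DESeq2 (adjusted p = 0.0168) and the fit without the R-Scm 24 h library that stood apart (adjusted p = 0.0323).

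Per3, the period gene held to matter least for the rhythm itself, lies on chromosome 4 (151003652 to 151044665) within the span of Camta1 on the same strand, with no shared exon base. It was at 15.3, 11.5 and 11.5 CPM in Rcm and at 6.02, 6.23 and 4.97 CPM in R-Scm 12 h, with no overlap. Its log2 fold change of -1.15 (SE 0.32) was not called (adjusted p = 0.0572), though it passed in 5 of 16 alternatives, DESeq2 among them (adjusted p = 0.0126). Library 1 of R-Scm 24 h held 22.5 CPM against 8.90 and 8.05 CPM in the other libraries of that group, and once it left the fit the value at 12 h was -1.15 with an adjusted p of 0.00361. In the other direction the Scm libraries held 10.2, 9.50 and 11.8 CPM of Per3, and those of S-Rcm 12 h, with 10.02, 8.91 and 8.96 CPM, overlapped them (-0.18, adjusted p = 0.871). S-Rcm 24 h again had a high library 1, with 17.6, 10.1 and 9.24 CPM.

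Cry1 and Cry2 encode the cryptochromes, the partners of the PER proteins. Cry1, on chromosome 10 (85131700 to 85185064), was at 32.3, 33.2 and 34.8 CPM in Scm, at 23.4, 17.4 and 21.4 CPM after 12 h in S-Rcm and at 27.1, 30.3 and 29.4 CPM in S-Rcm 24 h. The 3 groups did not overlap, with 12 h lowest and 24 h between. The fall at 12 h was -0.69 (SE 0.15, adjusted p = 0.0348), and it was not called when any 1 library of the groups compared was left out (-0.79 to -0.59, adjusted p = 0.0569 to 0.141). From Rcm, Cry1 went from 29.2, 24.6 and 22.7 CPM to 21.2, 16.6 and 20.97 CPM in R-Scm 12 h (-0.38, SE 0.15, adjusted p = 0.189) and stood at 22.2, 26.5 and 33.8 CPM in R-Scm 24 h. Here library 1 at 24 h was the lowest of its 3, unlike in the period genes.

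Cry2, on chromosome 2 (92403646 to 92434043), was at 20.1, 15.6 and 17.5 CPM in Rcm, 11.8, 11.8 and 11.04 CPM in R-Scm 12 h and 20.5, 15.4 and 19.5 CPM in R-Scm 24 h. The 12 h values were below all others and close together. The fall was -0.62 (SE 0.14, adjusted p = 0.0164). It was not called without Rcm library 1 (-0.52, adjusted p = 0.0886) or without R-Scm 12 h library 3 (-0.59, adjusted p = 0.0716). S-Rcm 12 h held 15.3, 13.7 and 14.6 CPM of Cry2 against 19.2, 20.8 and 19.2 CPM in Scm, again with no overlap, at -0.44 (SE 0.14, adjusted p = 0.137). Exons of Cry2 share 295 bases with the antisense transcript D930015M05Rik, which averaged 3.39 counts per library.

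Arntl, the activator of the loop, was the member that rose in R-Scm 12 h. On chromosome 7 (113207465 to 113314126), it was at 26.1, 29.0 and 26.1 CPM in Rcm, 40.9, 41.7 and 38.8 CPM in R-Scm 12 h and 20.9, 30.3 and 30.2 CPM in R-Scm 24 h. Every R-Scm 12 h library was above every other library of the series for this gene, and the low library at 24 h was library 1. The rise at 12 h was 0.58 (SE 0.12, adjusted p = 0.00889), at the fold threshold itself. It fell under that threshold when Rcm library 1 or 3 or R-Scm 12 h library 1 or 2 was left out (0.56 to 0.57, adjusted p = 0.0281 to 0.0431). In S-Rcm 12 h Arntl was at 30.7, 31.4 and 31.7 CPM against 30.7, 30.8 and 30.4 CPM in Scm (0.03, SE 0.12, 95% interval -0.23 to 0.29). The difference between the directions at 12 h, the R-Scm change minus the S-Rcm change, was 0.55 (SE 0.17, adjusted p = 0.114).

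Neither REV-ERB gene was called against the cells it came from at 12 h or 24 h. Nr1d1, on chromosome 11 (98767932 to 98775333), was at 26.8, 25.5 and 29.1 CPM in Rcm, 32.5, 30.8 and 24.3 CPM in R-Scm 12 h and 42.5, 33.8 and 32.6 CPM in R-Scm 24 h. Only the 24 h libraries were all above Rcm, at 0.42 (SE 0.14, adjusted p = 0.226). From Scm it went from 37.3, 41.2 and 36.4 CPM to 30.7, 35.3 and 29.9 CPM at 12 h and 33.9, 27.1 and 26.6 CPM at 24 h (-0.39, SE 0.13, adjusted p = 0.346), below Scm in all 6 libraries. The directions thus differed at 24 h, by 0.81 (SE 0.19, adjusted p = 0.0447), the only difference between directions called for a member. At 24 h 1.37% of all genes were called for this difference, 0.553% with the R-Scm change higher, and the comparison draws on Rcm and Scm, whose libraries did not overlap for Nr1d1. The call was lost in 11 of 21 alternatives, 8 of which left out 1 library (Scm 1, 2 or 3, Rcm 1 or 2, R-Scm 24 h 2, or S-Rcm 24 h 2 or 3), with 0.75 to 0.86 and adjusted p = 0.0642 to 0.124. Without S-Rcm 24 h library 1 the difference was 0.93 (adjusted p = 0.0264). Nr1d1 shares 263 exon bases with Thra, a thyroid hormone receptor gene on the other strand with 984.11 counts per library on average. Thra was at 45.7, 44.5 and 39.9 CPM in R-Scm 12 h and 57.2, 61.6 and 72.0 CPM in Rcm. Whether the counting used strand is not given in the sources used here, so that reads in the shared bases cannot be assigned to either gene.

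Nr1d2, on chromosome 14 (18204054 to 18239127), was at 65.7, 63.3 and 52.6 CPM in Rcm and 48.4, 46.1 and 34.7 CPM in R-Scm 12 h, without overlap. Its change was -0.49 (SE 0.16, adjusted p = 0.0864). S-Rcm 12 h held 47.6, 53.0 and 48.6 CPM against 67.9, 58.7 and 61.4 CPM in Scm (-0.33, SE 0.16, adjusted p = 0.339). At 24 h Nr1d2 was at 76.6, 57.4 and 51.6 CPM in R-Scm and 63.3, 52.2 and 46.9 CPM in S-Rcm, with library 1 the highest of its group in both.

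The output factors held both the largest change and the widest spread. Tef, on chromosome 15 (81802421 to 81826863), was at 81.7, 78.3 and 84.9 CPM in Rcm, 33.6, 37.4 and 14.2 CPM in R-Scm 12 h and 120.2, 68.6 and 76.0 CPM in R-Scm 24 h. The 12 h libraries were far below all others, even leaving aside the lowest, library 3. The fall was -1.52 (SE 0.27, adjusted p = 0.00445) and was called in 15 of 16 alternatives, the exception being the fit to the compared groups alone (-1.51, adjusted p = 0.0688). Without R-Scm 12 h library 3 it was -1.20 (adjusted p = 0.00538). In the other direction Tef was at 83.8, 85.1 and 80.2 CPM in Scm, at 61.1, 64.8 and 60.4 CPM after 12 h in S-Rcm and at 99.0, 68.0 and 67.4 CPM in S-Rcm 24 h. The S-Rcm 12 h libraries were below Scm without overlap, at -0.42 (SE 0.27, adjusted p = 0.519). The difference between the directions at 12 h was -1.10 (SE 0.38, adjusted p = 0.168), and no member was called for such a difference at that time by edgeR (3 at an unadjusted p under 0.05, 2.03% of all genes called, DESeq2 also 0). Tef shares 193 exon bases with the antisense transcript Gm17597, which averaged 7.11 counts.

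Dbp, on chromosome 7 (45705088 to 45710203), had the widest spread of the members within R-Scm 24 h. It was at 7.36, 8.32 and 13.1 CPM in Rcm, 5.75, 5.56 and 2.82 CPM in R-Scm 12 h and 21.1, 6.44 and 5.30 CPM in R-Scm 24 h. All 12 h libraries were below Rcm, whereas 24 h overlapped both and its library 1 was more than 3 times the others. The 12 h change was -1.02 (SE 0.41, adjusted p = 0.187), and -1.02 with an adjusted p of 0.0182 when R-Scm 24 h library 1 was left out of the fit. In the other direction Dbp was at 10.5, 12.0 and 12.3 CPM in Scm, at 9.14, 7.90 and 7.55 CPM after 12 h in S-Rcm (-0.50, adjusted p = 0.633) and 10.7, 10.2 and 10.6 CPM in S-Rcm 24 h. Dbp shares 539 exon bases with Sphk2, a sphingosine kinase gene on the other strand with 681.67 counts on average. Sphk2 was at 35.8, 29.1 and 19.1 CPM in R-Scm 12 h and 26.5, 33.9 and 47.5 CPM in Rcm (-0.36, adjusted p = 0.431).

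**Figure D3:**
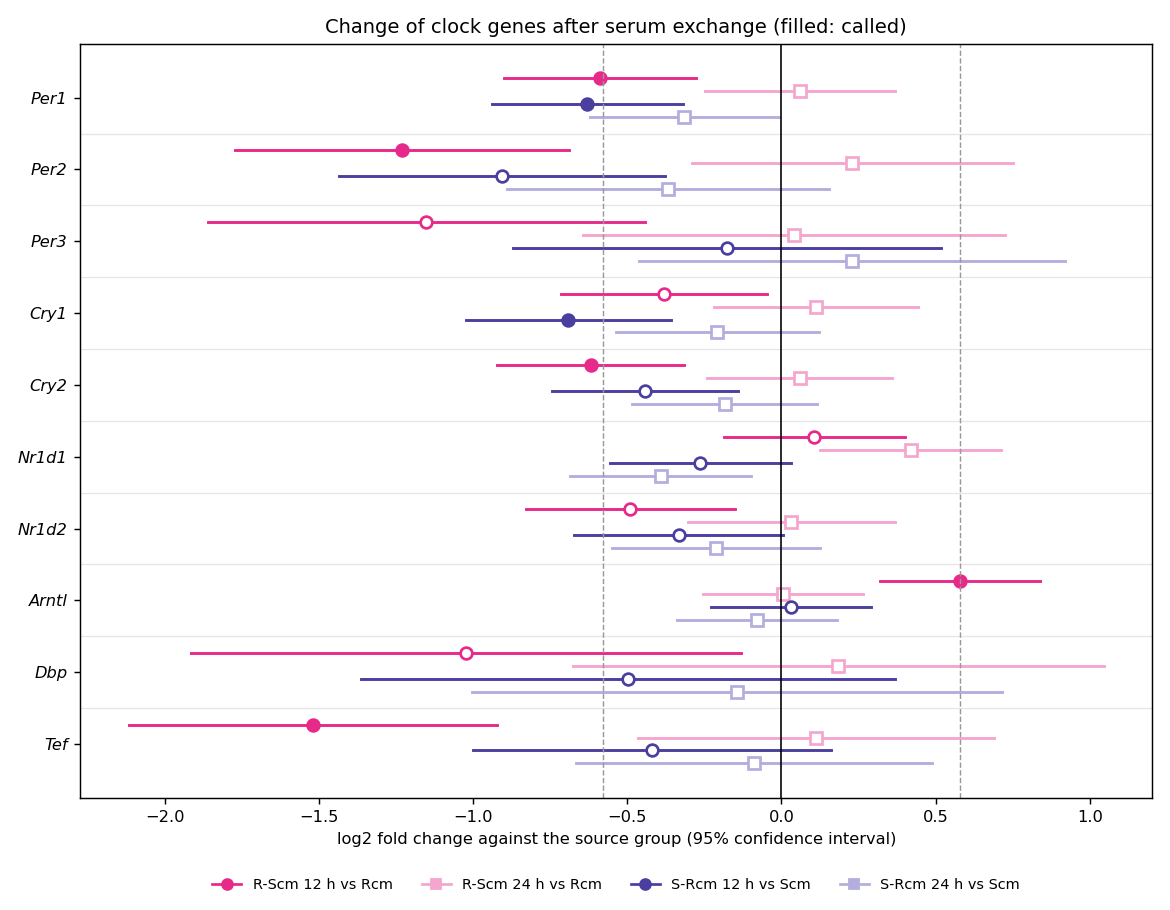
Log2 fold changes of the 10 clock genes against the cells they came from. Each point is the edgeR estimate with its 95% confidence interval, circles are 12 h and squares 24 h, filled points were called, and dashed lines mark ±0.58, with Tef at -1.52 and Per2 at -1.23 in R-Scm 12 h farthest to the left and Arntl at 0.58 to the right.

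The shape of the change over all members can be read from libraries that do not overlap. In R-Scm 12 h against Rcm 9 of the 10 members did not overlap (8 lower, 1 higher, Nr1d1 excepted), against 23.4% of all genes. In S-Rcm 12 h against Scm 8 of 10 did not overlap, all lower, against 26.4% of all genes. The median log2 fold change over the 10 members was -0.60 and -0.43 in these comparisons, where the median of all genes was -0.0077 and 0.019. By 24 h the median was 0.086 in R-Scm and -0.20 in S-Rcm. In R-Scm 24 h against Rcm 1 of 10 did not overlap (11.2% of all genes) and 0 were called by edgeR or DESeq2 (1 at an unadjusted p under 0.05, 0.377% of all genes called). In S-Rcm 24 h against Scm 3 of 10 did not overlap, Per1, Cry1 and Nr1d1, all lower (19.5% of all genes), and 0 were called by either tool (2 at an unadjusted p under 0.05, 0.338% of all genes called). In RNA of whole cultures, fewer cells with a transcript and less of it per cell cannot be told apart.

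The move from 12 h to 24 h went the other way in R-Scm. The R-Scm 12 h libraries also enter the comparison with Rcm, so that the fall at 12 h and the later rise are not independent. In S-Rcm the 12 h libraries are likewise shared with the comparison against Scm. Per1 (0.65, SE 0.14, adjusted p = 0.0351), Per2 (1.46, SE 0.25, adjusted p = 0.00928), Cry2 (0.68, SE 0.14, adjusted p = 0.0249) and Tef (1.63, SE 0.27, adjusted p = 0.00928) were higher at 24 h. These 4 of 10 compare with 0.332% of all genes higher and 0.774% in either direction. Arntl was lower by a change under the fold threshold (-0.58, SE 0.12, adjusted p = 0.0251), and the libraries did not overlap for 9 of 10 members, Dbp excepted (15.2% of all genes). Without R-Scm 24 h library 1 the rise of Per2 was 1.16 and that of Tef 1.34, both still called, and Cry1 was called too (0.62, adjusted p = 0.0389). In the fit to the compared groups alone none of the 4 was called (adjusted p = 0.307 to 0.389), with values of 0.66 to 1.65. That library decided the values of Dbp, 1.21 with it and 0.31 without it, and of Per3, 1.19 and 0.56, neither of which was called. The call of Per1 was lost without R-Scm 12 h library 1 or 3 or R-Scm 24 h library 3 (0.49 to 0.71, adjusted p = 0.0623 to 0.132), and that of Cry2 without R-Scm 12 h library 1, 2 or 3 or R-Scm 24 h library 3 (0.64 to 0.69, adjusted p = 0.0668 to 0.0980). In S-Rcm from 12 h to 24 h 8 of 10 members had a positive value, 5 of 10 did not overlap (Per1, Per2, Cry1, Dbp and Tef, all higher, against 17.2% of all genes), and 0 were called by edgeR or DESeq2 (3 at an unadjusted p under 0.05, 0.156% of all genes called). Without S-Rcm 24 h library 1 the count was 0 as well, while the calls over all genes went from 24 to 8.

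Against cells kept in the same serum the dip at 12 h was also present in R-Scm. R-Scm 12 h and Scm both held Scm serum at harvest, and 5 of 10 members were lower in R-Scm 12 h (1.29% of all genes lower, 4.4% in either direction). They were Per1 (-0.91, SE 0.14, adjusted p = 0.00102), Per2 (-1.56, SE 0.25, adjusted p = 0.00119), Cry1 (-0.77, SE 0.15, adjusted p = 0.00583), Cry2 (-0.77, SE 0.14, adjusted p = 0.00301) and Tef (-1.54, SE 0.27, adjusted p = 0.00308). Without R-Scm 12 h library 3 all 5 were still called, at -0.75, -1.32, -0.82, -0.74 and -1.23 in the same order. The calls over all genes then went from 676 to 353. The share of counts from mitochondrial genes was 2.64, 3.15 and 3.41% in R-Scm 12 h, 2.11 to 2.36% in Scm and 3.13, 3.28 and 1.96% in Rcm, and that of the 50 most abundant genes was 10.5 to 11.4% in R-Scm 12 h and 10.1 to 10.4% in Scm, and their part in the result was not tested. None of the 10 overlapped between the groups, 9 lower and Arntl higher (36.8% of all genes). This comparison shares its R-Scm 12 h libraries with that against Rcm and its Scm libraries with S-Rcm 12 h against Scm, so that they are not independent of each other. By 24 h R-Scm and Scm differed in 0 of 10 members by edgeR or DESeq2 (0 at an unadjusted p under 0.05, 0.592% of all genes called), with 2 of 10 not overlapping (14.9% of all genes).

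S-Rcm 12 h and Rcm likewise both held Rcm serum. S-Rcm 12 h against Rcm had 0 called by edgeR or DESeq2 (2 at an unadjusted p under 0.05, 0.871% of all genes called), and 6 of 10 members did not overlap (4 lower, namely Per2, Per3, Cry2 and Tef, and 2 higher, Arntl and Nr1d1, against 20.2% of all genes). S-Rcm 24 h against Rcm had 0 called by either tool (0 at an unadjusted p under 0.05, 0.221% of all genes called) and 0 of 10 without overlap (12.8% of all genes).

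Between the steady cultures, Rcm against Scm, 0 members were called by edgeR or DESeq2 (3 at an unadjusted p under 0.05, 2.3% of all genes called). Per1, Per2, Cry1, Arntl and Nr1d1, 5 of the 10, did not overlap, all lower in Rcm (23.9% of all genes). Nr1d1 had the largest difference, -0.50 (SE 0.14, adjusted p = 0.0616), followed by Cry1 at -0.39 (SE 0.15, adjusted p = 0.208).

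**Figure D4:**
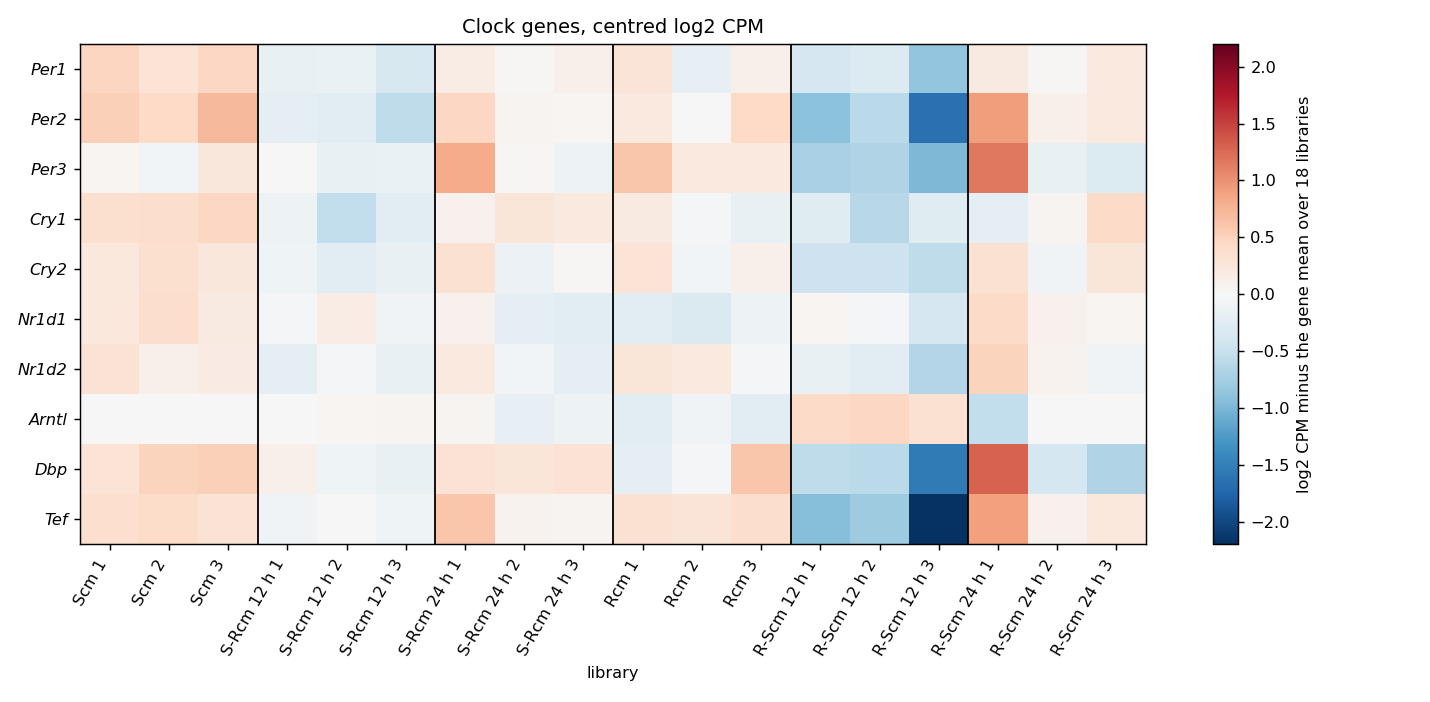
Log2 CPM of each clock gene minus its mean over the 18 libraries (colour, in log2 units), with genes in rows and libraries in columns by group. The median over the 10 genes was -0.42, -0.53 and -0.76 in the R-Scm 12 h libraries and -0.084, -0.12 and -0.16 in S-Rcm 12 h, and it was 0.46 in R-Scm 24 h library 1 against 0.041 and 0.13 in its group.

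Many members varied together across the 18 libraries, which share their scaling and the groups themselves. The Pearson r of log2 CPM was 0.943 for Per2 and Tef, and 0.904 after the group means were removed. It was 0.933 for Per1 and Per2 (0.749 within groups), 0.836 for Dbp and Tef (0.731) and -0.822 for Arntl and Per3 (-0.561). Nr1d1 followed the others less closely over all libraries, from 0.165 for Cry1 to 0.571 for Nr1d2, and -0.196 for Arntl. Within groups its r was higher for Tef (0.493 over all libraries, 0.858 within groups). The r of Cry1 changed sign within groups for Per2 (0.582 over all libraries, -0.537 within groups), Per3 (0.302 and -0.434) and Per1 (0.724 and -0.0804). The same held for Nr1d1 (0.165 and -0.62), Nr1d2 (0.398 and -0.467), Dbp (0.299 and -0.626), Tef (0.47 and -0.491) and Arntl (-0.37 and 0.324), but not for Cry2 (0.713 and 0.0486). Outside the clock lists, the genes most like Per2 over 18 libraries among 13507 genes were Plxnb2 (0.954), Ctdsp2-ps (0.947) and Wasf2 (0.940), those most like Dbp were Ralgds (0.918), Btd (0.896) and Lix1l (0.884), and those most like Arntl were Ptbp1 (0.875), Ddx18 (0.825) and Pi15 (0.823).

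Base composition differed between libraries, in part along with the members. The median centred log2 CPM of GC-rich genes minus that of GC-poor genes was -0.086, -0.23 and -0.32 in the R-Scm 12 h libraries, -0.26, -0.24 and 0.21 in Rcm and 0.093 to 0.21 in Scm. It was 0.24, -0.050 and 0.17 in S-Rcm 12 h. Dbp and Per1 were among the most GC-rich genes tested, at percentiles 97.8 and 94.5, and Nr1d2 was the least GC-rich member, at percentile 12.3. After GC content and gene length were regressed out, 2 of the 5 calls in R-Scm 12 h against Rcm remained, Per2 and Tef, while the calls over all genes went from 421 to 475. Per1 was then at -0.49, Cry2 at -0.56 and Arntl at 0.57, below the fold threshold with adjusted p of 0.0452, 0.0242 and 0.00989. In R-Scm 12 h against Scm 6 members were called after that removal, where the calls over all genes went from 676 to 582. Whether base composition caused the lower values of the members was not tested.

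Of 23 other genes of the clock, 19 passed the filter. In R-Scm 12 h against Rcm 1 of the 19 was called lower and 0 higher (1.22% and 1.51% of all genes), with a median log2 fold change of -0.077. It was Ciart, whose protein CHRONO represses ARNTL and CLOCK, at 2.68, 2.52 and 1.90 CPM against 4.12, 5.26 and 5.38 CPM in Rcm (-1.05, SE 0.17, adjusted p = 0.00244, and 0.0629 in the compared groups alone). At 24 h Ciart was at 6.24, 6.75 and 5.35 CPM, above every 12 h library, and library 1 did not stand apart (1.36, SE 0.17, adjusted p = 0.00176, and 0.162 in the compared groups alone). Against Scm in R-Scm 12 h 3 of the 19 were lower and 1 higher (4.4% of all genes in either direction). Ciart stood at -1.48 (SE 0.17, adjusted p = 8.5e-05) and the E-box repressors Bhlhe40 and Bhlhe41 at -0.76 (SE 0.17, adjusted p = 0.0114) and -0.67 (SE 0.14, adjusted p = 0.0101). The call of Bhlhe40 was lost without Scm library 1 (-0.71, adjusted p = 0.0525), and that of Bhlhe41 without Scm library 1 or 3 or R-Scm 12 h library 1 (-0.62 to -0.57, adjusted p = 0.0399 to 0.0518).

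The gene called higher was Hlf, the third PAR bZIP factor beside Dbp and Tef, which followed another course in the comparisons with Scm. Hlf was scarce, at 1.02, 0.624 and 1.17 CPM in Scm (9 to 19 counts), 2.62, 2.93 and 2.54 CPM in Rcm and 2.36, 1.68 and 2.98 CPM in S-Rcm 12 h. It was higher in Rcm than in Scm (1.51, SE 0.29, adjusted p = 0.00771) and higher in S-Rcm 12 h than in Scm (1.31, SE 0.29, adjusted p = 0.0353), where Dbp and Tef had negative values. The first call was lost without Scm library 2 (1.30, adjusted p = 0.0524). The second was lost without any 1 of Scm library 1, 2 or 3 or S-Rcm 12 h library 1 or 3 (1.10 to 1.48, adjusted p = 0.0789 to 0.159). R-Scm 12 h held 1.64, 2.67 and 1.90 CPM of Hlf (1.14 against Scm, SE 0.29, adjusted p = 0.0259, lost without Scm library 1 or 2 or R-Scm 12 h library 2 or 3 at adjusted p = 0.0580 to 0.115). Against Rcm, the cells it came from, Hlf in R-Scm 12 h had a negative value, as Dbp and Tef had (-0.37, SE 0.27, adjusted p = 0.521). In R-Scm 24 h against Rcm it was -0.83 (SE 0.27, adjusted p = 0.238). Clock itself, the partner of Arntl, was at 42.5 to 113 CPM with wide spread within groups (-0.10 in R-Scm 12 h against Rcm, SE 0.31, adjusted p = 0.909), and Npas2, its paralogue, had too few counts to be tested.

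Lists of genes that respond to serum, cAMP or glucocorticoids, and of cell cycle genes, were also examined. Of 8 immediate-early and cAMP-responsive genes, such as Fos and Egr1, 0 were called in R-Scm 12 h against Rcm by edgeR or DESeq2 (1 at an unadjusted p under 0.05, 2.74% of all genes called), and 0 in S-Rcm 12 h against Scm by either tool (1 at an unadjusted p under 0.05, 0.858% of all genes called). Their summed level was 330 to 798 CPM in R-Scm 12 h and 276 to 673 CPM in R-Scm 24 h, wider than the 383 to 486 CPM of the other groups. Of these 8 genes 7 had a positive value in R-Scm 12 h against Rcm (median 0.31) and 3 in S-Rcm 12 h against Scm (median -0.033). DESeq2 called 1 of the 8 in each of R-Scm 12 h against Scm, Rcm against Scm and the 24 h difference between directions. There edgeR called 0, and DESeq2 called 826, 486 and 395 of all genes. Of 6 glucocorticoid-responsive genes 5 were tested, and 1 of the 5 was called in R-Scm 12 h against Rcm (2.74% of all genes). This was Sgk1, the gene of a kinase regulated by serum and by glucocorticoids, which was higher in R-Scm 12 h (0.64, SE 0.15, adjusted p = 0.0269). Of the 5 tested, 2 had a positive value there, and their median log2 fold change was -0.056. The call of Sgk1 was lost without R-Scm 12 h library 3 (0.36, adjusted p = 0.124) or Rcm library 1, 2 or 3 (0.63 to 0.65, adjusted p = 0.0676 to 0.0859). Of 8 cell cycle genes 1 was called in R-Scm 12 h against Scm (4.4% of all genes). This was Ccne2, the gene of cyclin E2, which was higher in R-Scm 12 h (0.69, SE 0.18, adjusted p = 0.0247). Against Rcm 0 were called by edgeR or DESeq2 (2 at an unadjusted p under 0.05, 2.74% of all genes called). The call of Ccne2 was lost without Scm library 1, 2 or 3 or R-Scm 12 h library 3 (0.57 to 0.74, adjusted p = 0.0593 to 0.130), and its value was 0.34 after GC content and gene length were regressed out. The part of these lists in the values of the clock genes was not tested.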

How the data were processed

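The authors extracted RNA from MEFs with the RNeasy mini kit, made paired-end libraries and mapped the reads with HISAT2 to GRCm38, the mouse build named in the labels. The deposited values are raw read counts per gene, without normalization. The counting tool, its use of strand and its handling of reads with several alignments are not given in the sources used here. All 18 columns were assigned to 6 groups by their titles, and 0 were left out. Gene models were taken from GENCODE M21, where 55141 of 55487 identifiers matched.

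Genes were filtered with filterByExpr and libraries scaled by TMM in edgeR 4.0.16 (R 4.3.3), and a robust quasi-likelihood model was fitted to all 18 libraries, with Benjamini-Hochberg adjustment over 15381 genes. This was tested on simulated data. In R-Scm 12 h against Rcm 22.4% of simulated 1.5-fold changes, 73.1% of 2-fold and 84.8% of 3-fold changes were recovered. For the difference between directions at 12 h these were 4.48%, 47.8% and 69.7%. The absence of a call, above all for that difference, therefore does not show that a gene was unchanged. Log2 CPM took a prior count of 2. DESeq2 1.42.0, RLE scaling, no filter, replicate blocks, the compared groups alone, the adjusted p alone and each library left out were alternatives, as were fits without 24 h libraries numbered 1 or with GC content and length regressed out, chosen after seeing the data. The adjusted p alone keeps the main fit and drops the fold threshold, so that a call of the main fit cannot be lost there. Intervals are 95%, take 12 residual degrees of freedom and cover the spread between libraries. They are not those of the quasi-likelihood test and can include 0 where its unadjusted p is under 0.05. The study's thresholds were used. The members, gene lists, comparisons and the rule for named genes (all members, called genes of the other lists, Clock, Npas2 and Bhlhe40, and the 3 genes most like Dbp, Per2 and Arntl) were chosen with earlier results of these data known. Genes that share exon bases with members were added after their values were seen.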

Additional observations from a re-analysis of the deposited data

Results flagged for a closer look

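A difference between the directions of exchange, the R-Scm change minus the S-Rcm change, was called for 1 member, Nr1d1, and for Hlf and Sgk1. For Nr1d1 at 24 h it was 0.81 on the log2 scale (SE 0.19, adjusted p = 0.0447, edgeR), with all 3 R-Scm libraries above Rcm and all 3 S-Rcm libraries below Scm. For Hlf it was -1.68 at 12 h (SE 0.40, adjusted p = 0.0328) and -1.76 at 24 h (SE 0.40, adjusted p = 0.0414), on counts of 9 to 52 per library. The calls of Hlf were lost in 9 and in 10 of the fits that left out 1 library (adjusted p = 0.0561 to 0.0932 and 0.0538 to 0.118). For Sgk1 at 12 h it was 0.87 (SE 0.22, adjusted p = 0.0470), lost without any 1 of 10 libraries (0.60 to 0.90, adjusted p = 0.0588 to 0.118) and smallest without R-Scm 12 h library 3. Rcm and Scm enter each of these differences, and the libraries of Rcm and Scm did not overlap for Nr1d1 or Hlf.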

How the results depend on the processing

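Of 13 counts of called members, 7 were 0 in every alternative run, and that of R-Scm 12 h against Scm stayed at 5 to 7. In R-Scm 12 h against Rcm the 5 calls became 2 in the compared groups alone, 2 after GC content and gene length were regressed out, and 2 to 5 with 1 library left out. Over all genes the 421 calls became 275 to 420 with 1 library left out. In S-Rcm 12 h against Scm the 2 calls became 0 with any 1 library left out, while the 132 over all genes became 36 to 76. In R-Scm 24 h against 12 h the 4 calls became 0 in the compared groups alone and 2 to 5 with 1 library left out. Over all genes the 119 calls became 2 in the compared groups alone and 57 to 309 with 1 library left out. The difference between directions at 12 h went from 0 to 1 (Per3) in the compared groups alone and without both 24 h libraries numbered 1. At 24 h it went from 1 to 0 without the filter, in the compared groups alone and after GC content and gene length were regressed out, and was 0 to 1 with 1 library left out. Of 816 alternatives to 49 values of single genes, 670 kept their side of the threshold, 129 lost a call, 17 gained one and 0 changed sign. The 670 include alternatives to values not called in the main fit, which had no call to lose. The 816 also include the adjusted p alone, where a call could not be lost. The cause was not tested.

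The replicate numbers were not taken to pair the samples. Deviations of same-numbered libraries correlated at -0.196 to 0.346 for the title numbers, over 0.1 in 11 of 45 pairs, and 7 of 18 libraries correlated best with one of their own number. Those of differently numbered libraries correlated at -0.269 to 0.212, over 0.1 in 16 of 90 pairs. With a replicate block on the title numbers 6 members were called in R-Scm 12 h against Rcm (397 of all genes, 421 without a block) and 2 in S-Rcm 12 h against Scm (121, and 132 without). With a block on the description numbers these were 4 (270) and 1 (105).

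The fits without 24 h libraries and the regression on GC content and length were chosen after seeing the data. Without R-Scm 24 h library 1, 7 members were called in R-Scm 12 h against Rcm, Per3 and Dbp being added, while the calls over all genes went from 421 to 554. Over all genes, that library left 58 calls in R-Scm 24 h against Rcm and 501 were made without it, and for the 24 h difference between directions these were 211 and 761. The 421 calls of R-Scm 12 h against Rcm became 237 in the compared groups alone, and the 119 of R-Scm 24 h against 12 h became 2.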
